A study of Arabidopsis thaliana with 4 samples.

Results

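The response of wild-type Arabidopsis thaliana roots to aluminium (Al) was read from 2 of the 4 arrays of a study on plants of the genotype wrky47, named for the transcription factor gene WRKY47. Both arrays were hybridised with total RNA from roots of 4-week-old wild-type plants grown in hydroponic culture. One sample came from plants kept for 6 h in 0.5 mM CaCl2 alone (control solution) and the other from plants kept for 6 h in the same CaCl2 solution with 25 µM AlCl3. The remaining 2 arrays hold wrky47 roots in the same 2 solutions. The comparison covers every probe set that names 1 gene, 20550 of 22810, which gave 20341 genes. The labels leave unsaid the wild-type accession, the nature of the wrky47 allele, the number of plants pooled and the part of the root taken.

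Aluminium becomes soluble in acid soil and inhibits root elongation within hours. The ion binds to pectin and other polymers of the cell wall and to the plasma membrane, and roots detoxify it by exporting malate and citrate, by modifying the wall and by moving Al into vacuoles. In Arabidopsis the zinc-finger factor STOP1 controls much of this tolerance programme, including the malate channel ALMT1 and the citrate exporter MATE. The half-size transporter parts STAR1 and ALS3 also act in tolerance. Calcium signals, reactive oxygen, ethylene and auxin are known to change early in exposed roots.

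With 1 array per condition there was no replicate spread to compare with, and no p-value was computed. A gene was called measured if its signal exceeded the floor on both arrays, the 40th percentile of the probe sets of each array (a linear signal of 81.1 in control solution and 75.002 in Al). It was said to have risen or fallen if its log2 difference, Al minus control, was 1 or more in size, that is 2-fold. A gene above the floor on 1 array only is given as a bound, the brighter signal divided by the floor where it was dim. Of 12434 measured genes 379 rose (3.05%) and 301 fell (2.42%), 5.47% in all, and 68 more were at least 2-fold higher and 52 at least 2-fold lower as bounds. The median difference of all measured genes was -0.12. Relative to that median 488 genes were higher (3.92%) and 211 lower (1.7%) by 2-fold, so that the share of higher genes among those called went from 55.7% to 69.8%. Differences below are as deposited and can be read against this median. Counts in the gene lists can be read against the all-gene shares of 3.05% risen and 2.42% fallen. Of all measured genes 77.5% lay between -0.5 and 0.5. Since each array holds RNA of many cell types, fewer cells of a type and less RNA per cell cannot be told apart.

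The spread between single arrays was described by other pairs of values. Of 12602 genes 13 passed 2-fold upward from wild type to wrky47 within control solution (0.103%) and 26 downward (0.206%, 0.309% in all), although these arrays also differ in genotype. In 5 equal groups of genes ordered by mean signal the SD of that genotype difference was between 0.19 and 0.27, and the SD of the Al difference between 0.39 and 0.54. For 89 genes with several measured probe sets the SD of the gap between 2 probe sets of the gene was 0.31, with a largest gap of 0.98. The 3′ to 5′ contrast of the actin control probe sets, a measure of RNA integrity, was 1.36 on the log2 scale in control solution and 1.32 in Al. Dap, a spike-in control RNA, averaged 7.74 on the log2 scale on the control array and 8.21 on the Al array. On the wrky47 arrays Dap averaged 8.25 in control solution and 8.22 in Al, so the wild-type control array was the lowest. Its part in the differences was not tested.

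**Figure D1:**
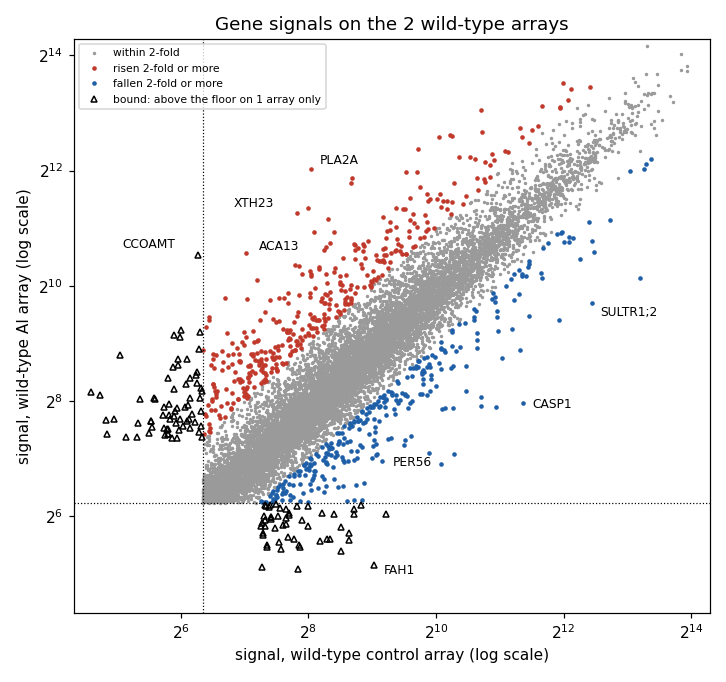
Signals of genes on the wild-type control array (x axis) and the wild-type Al array (y axis), both on log scales. Red points rose and blue points fell by 2-fold or more (379 and 301 genes), grey points lay within 2-fold, triangles are bounds of at least 2-fold, and dotted lines mark the floors of 81.1 and 75.002.

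PLA2A, a patatin-like lipase of wounding and defence, had signals of 263 in control solution and 4198 in Al (15.97-fold). ACA13, an autoinhibited calcium pump, had 130.4 in control solution and 1521 in Al (11.7-fold), and the wall enzyme XTH23 227 in control solution and 2455 in Al (10.8-fold). These were the 3 highest of all measured genes. At the other end CASP1, the scaffold protein of the endodermal Casparian strip, fell from 2649 to 249.5 (10.6-fold). PER56, a class III peroxidase, fell from 1242 to 136, and the acyltransferase-like AT4G15390 fell from 9434 to 1124. A difference of 4-fold or more was seen at 58 genes upward and 27 downward, and of 8-fold or more at 8 upward and 5 downward. Several genes given by code alone have no symbol in the tables and were picked after their values were seen.

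**Figure D2:**
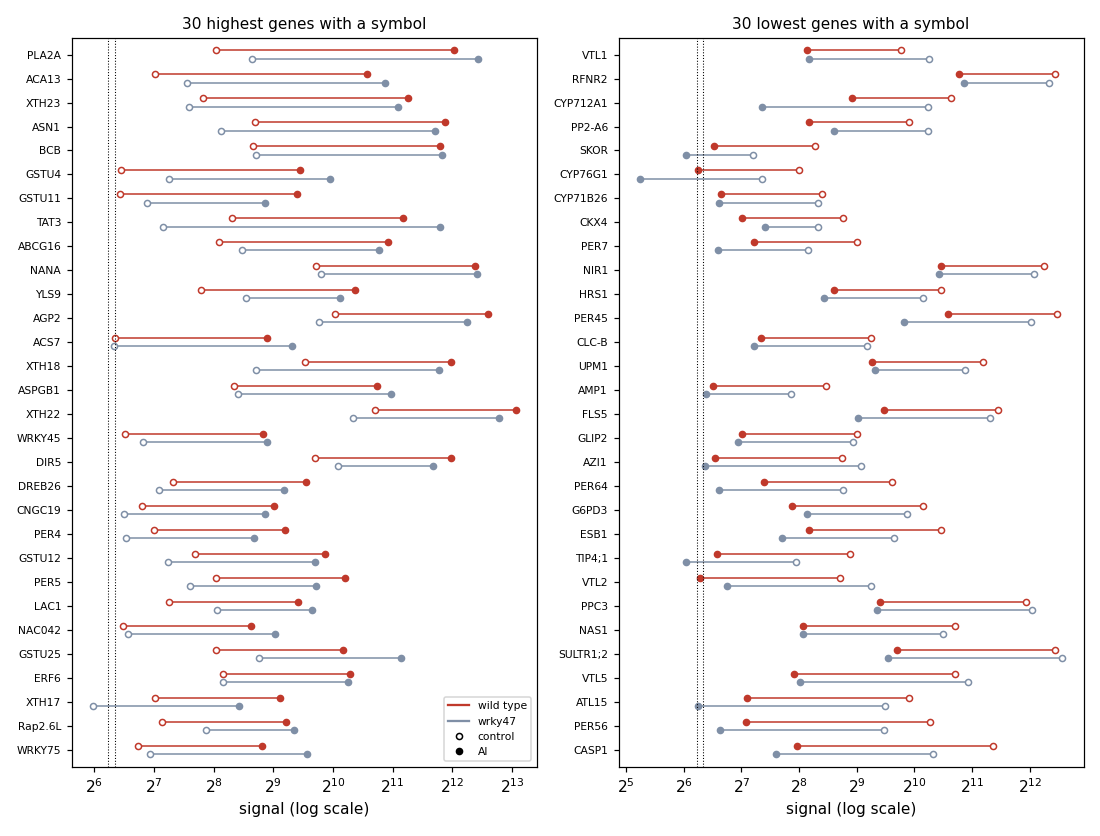
Signals (log scale) of the 30 genes with a symbol that had the highest and the 30 that had the lowest wild-type difference. Open circles are control and filled circles Al, red is wild type and grey-blue wrky47, 1 array each, and dotted lines mark the wild-type floors; PLA2A runs from 263 to 4198 and CASP1 from 2649 to 249.5 in wild type.

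Genes that answer touch, wounding and elicitors within minutes had the highest median of the 90 lists examined. Of 21 measured members 12 rose (57.1%) and 0 fell, with a median of 1.17, against 3.05% and -0.12 over all measured genes. XTH22, first described as the touch gene TCH4, went from 1662 to 8535, and TCH3, a calmodulin-like calcium sensor, from 3248 to 8918. The zinc-finger repressor STZ, also called ZAT10, had 665 in control solution and 2078 in Al. Members that did not pass 2-fold included PUB22 (-0.31), a ubiquitin ligase, and TCH2 (0.15), another calmodulin-like protein.

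Calcium pumps had members in both directions. ACA13 rose, ACA12, its close relative at the plasma membrane, had 575 in control solution and 1388 in Al (1.27), and ACA4, a pump of the vacuolar membrane, fell from 459 to 147. Among 13 measured calcium-transporting ATPases, a list built from gene titles after values were seen, these 3 passed 2-fold and the others lay between -0.32 and 0.83. Among 64 calcium sensors and sensor kinases 6 rose and 2 fell. PBP1, which binds the auxin-transport kinase PINOID, had 179 in control solution and 660.4 in Al, and CML41, a calmodulin-like protein, 134 in control solution and 336 in Al. The kinase CIPK3 fell from 551 to 202. CNGC19, a cyclic nucleotide-gated calcium channel of the defence response, rose from 112 to 516, and the EF-hand protein AT4G27280 from 1195 to 6314. In the MAP kinase cascade the single gene that rose among 21 measured was MPK11, with 127 in control solution and 505 in Al.

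Transcription factor families rose in part only. Of 32 measured ERF and DREB factors, which act in ethylene and dehydration responses, 7 rose and 1 fell. DREB26 went from 159 to 745, ERF6 from 287 to 1250.5 and ERF2 from 341 to 1265, while ERF73, a hypoxia-response factor also called HRE1, fell by 1.12 on the log2 scale. Of 39 NAC factors 6 rose and 1 fell (0 relative to the all-gene median), and 2 were higher as bounds. NAC042 had 89.1 in control solution and 396 in Al, NAC032 121 in control solution and 452 in Al, and NAC6, the senescence regulator ORE1, 296 in control solution and 887 in Al. The NAC gene AT3G15500 was below the floor in control solution and at 479 in Al, at least 5.90-fold higher.

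MYB and WRKY families had members on both sides. MYB15, an activator of lignin genes, rose from 174 to 684, and MYB77, an auxin-response partner, from 120.3 to 415. MYB51 rose from 135 to 390.5 while MYB34 fell from 593 to 262; both activate indole glucosinolate synthesis. WRKY genes past 2-fold numbered 6 upward and 3 downward among 49 measured, and the median of -0.04 turned to 0.08 after quantile normalization. With the floor at the 60th percentile 3 of 24 rose and 0 fell. WRKY45, a phosphate-uptake regulator, had 91.2 in control solution and 452 in Al, whereas WRKY27 fell from 243 to 84.9. WRKY47 itself, the gene that names the mutant, had 173 in control solution and 203 in Al, a difference of 0.23.

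Genes of the immune system rose in several families. Of 31 measured salicylic acid and defence genes 8 rose and 0 fell, with a median of 0.42. PBS3, which conjugates glutamate to isochorismate in salicylic acid synthesis, went from 1480.4 to 4832, and YLS9, a late-embryogenesis-like defence protein, from 222 to 1322. EDS16, the isochorismate synthase of that route, had 701 in control solution and 492 in Al (-0.51) and did not pass 2-fold. TIR-domain genes, which encode nucleotide-binding immune receptors or short forms of them, were counted after their values were seen. Of 36 measured 6 rose (16.7%), 0 fell and 4 were higher as bounds. Of the 6, AT1G72890 had 303 in control solution and 1567 in Al, AT1G72900 100.05 in control solution and 468 in Al and AT1G72940 92.1 in control solution and 381 in Al. Among 45 lectin-domain genes, also counted afterwards, 6 rose and 2 fell, led by the legume lectin-like AT3G16530 with 103 in control solution and 885 in Al.

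In the camalexin and indole glucosinolate list 6 of 27 rose and 1 fell. The highest member, GSTU4, is also counted below among the tau-class glutathione transferases. With the floor at the 60th percentile 0 of 21 rose, as the risen members were dim in control solution. PAD3, the last enzyme of camalexin synthesis, had 140.0 in control solution and 451 in Al, CYP71A12, which acts earlier in that route, 184 in control solution and 495 in Al, and CYP81F2, which modifies indole glucosinolates, 112 in control solution and 401 in Al. The highly expressed root beta-glucosidase PYK10 had 10915 in control solution and 7476 in Al. Every measured member brighter in control solution than MYB34 stayed within 2-fold.

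Detoxification enzymes of the glutathione transferase tau class were divided into risen and fallen members. Of 21 measured 7 rose (33.3%) and 2 fell (9.52%), with a median of 0.08. GSTU4 went from 87.4 to 701, GSTU11 from 86.8 to 678 and GSTU25 from 264 to 1152. GSTU28 fell from 234 to 77.2 and GSTU27 from 1328 to 489. UGT74E2, a glucosyltransferase of the auxin indole-3-butyric acid, was below the floor in control solution and at 567 in Al, at least 6.99-fold higher. ABCG16, a plasma-membrane exporter, rose from 271 to 1948.

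Proteins with a copper-transport or heavy-metal-associated domain, a family of small metal-binding proteins listed by title after values were seen, rose at 6 of 27 measured members (22.2%) and fell at 2. AT5G52760 had 131 in control solution and 875 in Al, AT5G52670 339 in control solution and 1967 in Al and AT2G35730 100.2 in control solution and 373 in Al. HIPP25, of the same family, fell from 1076 to 487. With the floor at the 60th percentile 1 of 14 rose and 2 fell, so the excess of risen members depends on that floor.

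Cytochrome P450 enzymes rose and fell in equal number, 7 and 7 of 76, with 3 lower and 1 higher as bounds. Each count was 9.21% of the list, against 3.05% risen and 2.42% fallen over all measured genes. Relative to the all-gene median 9 rose and 6 fell, and with the floor at the 60th percentile 1 of 41 rose and 2 fell. CYP81D8, a gene often induced by toxic compounds, rose from 101 to 409, and CYP712A1 fell from 1598 to 484. Among 2-oxoglutarate-dependent oxygenases, also listed after values were seen, 1 of 37 rose (2.7%), 3 fell (8.11%) and 3 were lower as bounds. Relative to the all-gene median 2 rose and 2 fell, so the 2-fold calls of this list have no settled direction. AT5G59540 rose from 118 to 482, and its family member AT1G52820 fell from 2014 to 594.

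In alternative respiration electrons bypass the proton-pumping complexes of mitochondria. A list named for it, which also holds other mitochondrial genes, had 3 of 8 measured members risen and a median of 0.78. Of the 3 risen only NDB2 is a respiratory dehydrogenase. BCS1, a mitochondrial AAA protein, had 574 in control solution and 1597 in Al, the dicarboxylate carrier DIC2 239 in control solution and 611 in Al and the external NADH dehydrogenase NDB2 661 in control solution and 1568 in Al. The alternative oxidase AOX1A, with 1018 in control solution and 1717 in Al, was at 0.75, and NDB1 was at -0.88. Classical antioxidant enzymes had 0 of 25 risen and 1 fallen (0 relative to the all-gene median), the catalase CAT2, and heat shock proteins had 0 of 16 past 2-fold in either direction.

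Jasmonate genes rose at 8 of 24 measured members (33.3%), with 0 fallen, 3 higher as bounds and a median of 0.41. TAT3, a tyrosine aminotransferase long used as a jasmonate reporter, had 316 in control solution and 2298 in Al. Those that rose included the repressors JAZ5 (1.49) and JAZ10 (1.11) and enzymes that take the hormone out of action, the sulfotransferase ST2A (1.40) and the amidohydrolase ILL6 (1.21). AT2G38240, a gene of the same list annotated as a 2-oxoglutarate-dependent oxygenase, was at least 5.23-fold higher. The receptor gene COI1 and the factor MYC2 were measured and did not pass 2-fold.

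Ethylene genes rose at 7 of 29 members with 0 fallen. The synthases of the ethylene precursor ACS7 and ACS6 had 81.7 in control solution and 474 in Al and 624 in control solution and 1369.7 in Al, while the oxidase gene AT1G77330, which acts in the next step, was at -0.87. Auxin genes rose at 4 and fell at 3 of 54 (7.41% and 5.56%, against 3.05% and 2.42% over all measured genes). GH3.1, which conjugates auxin to amino acids, rose from 137 to 449, and the influx carrier LAX3 fell from 2619.9 to 1176.

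Cytokinin genes moved downward where they moved by 2-fold among measured genes. This hormone is made in roots, loaded into the xylem and read out by a phosphorelay, in which type-A response regulators are primary target genes and feedback inhibitors. Of 22 measured genes 6 fell (27.3%) and 0 rose, while 3 more were lower and 1 higher as bounds, with a list median of -0.11. The type-A regulators ARR7, ARR9, ARR5 and ARR4 went from 661 to 259.7, 259.6 to 117, 328 to 155 and 1077 to 518. ARR6 was at 219 in control solution and below the floor in Al, at least 2.91-fold lower. The receptor WOL, also called AHK4, fell from 401 to 158 and the degrading oxidase CKX4 from 436 to 129. CYP735A2, which makes trans-zeatin forms, was at least 3.202-fold lower. The activating enzyme gene LOG5 was at least 2.48-fold higher in Al, and LOG7 was at 0.82. Relative to the median of all genes 4 of the 6 passed 2-fold, and on the wrky47 arrays 0 of 23 measured members fell, with ARR7 at -0.91, WOL at -0.84 and CKX4 at -0.91. The difference between the genotypes was not tested.

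Growth hormones showed a few changes. GA2OX2, which inactivates gibberellin, rose from 313 to 1065. The brassinosteroid synthesis genes CYP90D1 and DWF4 fell from 378 to 122 and from 315 to 135. Abscisic acid and dehydration genes had 0 of 25 risen and 2 fallen.

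**Figure D3:**
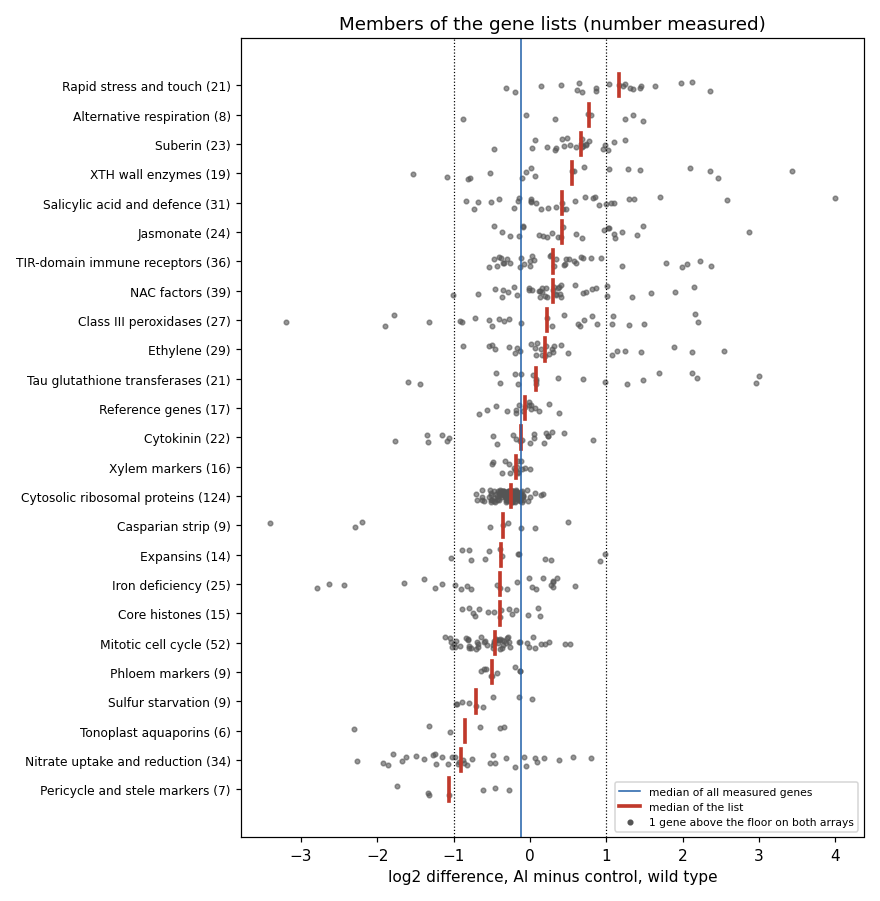
Log2 differences (Al minus control, wild type; x axis) of the measured members of 25 gene lists, 1 point per gene, with the list median as a red bar, the median of all measured genes (-0.12) as a blue line and dotted lines at 2-fold. Rapid stress and touch genes have the highest median (1.17) of those drawn and pericycle and stele markers the lowest (-1.06).

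Wall-modifying enzymes had members in both directions. XTH enzymes cut and rejoin xyloglucan, and 7 of 19 measured rose (36.8%) and 2 fell (10.5%). XTH18 went from 736 to 4037 and XTH24 from 2539 to 6883, while XTH15 fell from 966 to 334 and XTH31, a gene of aluminium binding in the wall, was at -0.81. Expansins, which loosen the wall, had 10 of 14 members below 0, where 64.1% of all measured genes were, with 1 fallen (EXPA14) and 2 lower as bounds. Relative to the all-gene median 0 fell and 2 rose, so the 2-fold calls of this list have no settled direction. Their median was -0.38 in wild type and 0.12 on the wrky47 arrays.

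Arabinogalactan proteins, glycoproteins of the wall and membrane surface, rose at 5 and fell at 5 of 32. AGP2 rose from 1054 to 6162 and AGP12 from 4084 to 11777, and AGP13 fell from 434 to 141. Among pectin methylesterases and their inhibitors 2 of 35 rose and 3 fell. The pectin methylesterase gene AT2G45220 had 716 in control solution and 2571 in Al and AT1G02810, annotated as pectinesterase 7, 721 in control solution and 151 in Al. A pectin acetylesterase gene, AT5G45280, rose from 1213 to 6237. Extensins and proline-rich proteins, which stiffen the wall, rose at 2 and fell at 1 of 9. EXT4 went from 769 to 2271, and ELP, an extensin-like protein, from 731 to 276. Class III peroxidases, which make or consume hydrogen peroxide in the wall, rose at 6 and fell at 4 of 27, and 2 more were lower as bounds. PER4 and PER5 had 128 in control solution and 587 in Al and 263 in control solution and 1179 in Al, against 5717 in control solution and 1538 in Al for PER45 and 515 in control solution and 149.7 in Al for PER7.

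The endodermis is the inner cell layer that seals the root. Its Casparian strip is a lignin ring laid down by CASP scaffold proteins, peroxidases and dirigent proteins, and older cells add suberin lamellae. Of 9 measured strip genes 3 fell (33.3%), 0 rose and 4 more were lower as bounds. ESB1, the dirigent protein of the strip, had 1415 in control solution and 289.8 in Al and the strip peroxidase PER64 778 in control solution and 169 in Al. Among these, CASP2, the uclacyanin UCC1 and the peroxidase PER9 were below the floor in Al and at 396, 365 and 298 in control solution, at least 5.28-, 4.87- and 3.97-fold lower.

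A pair of dirigent genes outside the list, chosen after their values were seen, were also lower, AT4G13580 with 1085 in control solution and 119.6 in Al and AT2G39430 with 419.9 and a signal below the floor, at least 5.60-fold lower. Genes that act above the strip genes stayed within 2-fold. The master regulator MYB36 had 209 in control solution and 163 in Al (-0.36), and the receptor kinase GSO1 463 in control solution and 322 in Al (-0.52). In wrky47 control roots CASP1 was at 1288 and ESB1 at 797, below the wild-type control signals, and in Al at 193 and 208.

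Suberin genes were above 0 at 22 of 23 measured members, against 35.9% of all measured genes, and 3 rose. CYP86B1, a hydroxylase of very long fatty acids, had 654 in control solution and 1548 in Al, the reductase FAR1 354 in control solution and 757 in Al, and the acyltransferase GPAT5 736 in control solution and 1495 in Al. CYP86A1, the hydroxylase of shorter chains, was at 0.07. The regulator MYB41 was below the floor in control solution and at 171 in Al, and ABCG6, a suberin exporter, was at 0.95. After subtraction of the all-gene median 5 members passed 2-fold upward. With the 20th percentile of each array added before log2, 2 of 23 did.

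**Figure D4:**
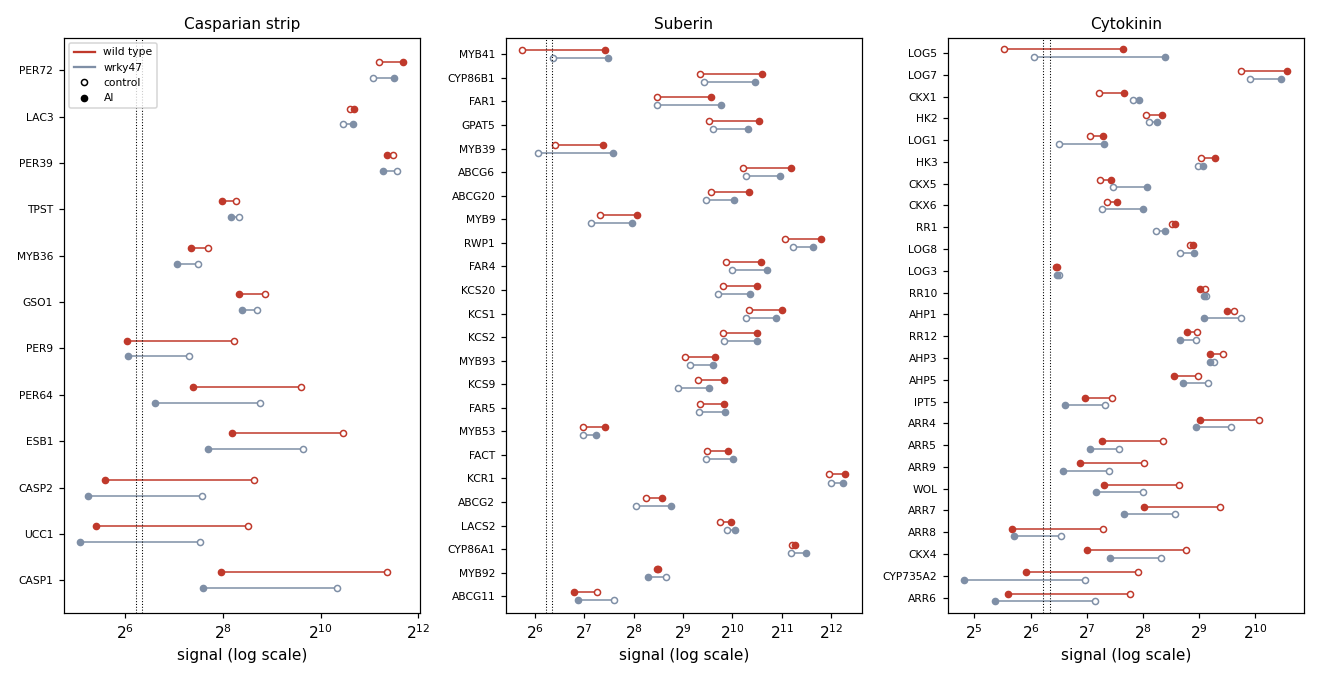
Signals (log scale) of most of the Casparian strip genes and of the suberin and cytokinin genes that were measured or had a bound of at least 2-fold in wild type; open circles are control, filled circles Al, red wild type and grey-blue wrky47, 1 array each. Strip genes run mostly to the left (3 of 9 measured genes fell and 2 were above 0), suberin genes mostly to the right (22 of 23 above 0). The cytokinin genes that fell are at the bottom.

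GDSL lipases, a family that includes enzymes which build or break down cutin and suberin, were counted after values were seen and fell at 6 of 28 (21.4%, 5 relative to the median) while 2 rose. With the floor at the 60th percentile 0 of 14 fell and 2 rose. The adjacent genes AT1G29660 and AT1G29670 fell from 389.7 to 76.5 and from 372 to 92.3. AT1G28600 rose from 272 to 707. Of 9 measured genes with dirigent in their title, which leaves out ESB1, 1 rose, DIR5 with 834 in control solution and 4026 in Al, and 1 fell, AT4G13580.

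Lignin genes showed no common shift, with 2 of 22 risen, 0 fallen and a median of 0.03. BCB, a blue copper-binding protein, had 405 in control solution and 3547 in Al, and CCR2, a cinnamoyl-CoA reductase, 347 in control solution and 809 in Al. The methyltransferase CCOAMT was below the floor in control solution and at 1478 in Al, at least 18.23-fold higher, the largest bound of the comparison. FAH1 (AT4G36220), which opens the branch to syringyl lignin, had a control signal of 523 and a bound of at least 6.97-fold lower.

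The known aluminium tolerance genes had 3 of 22 risen and 2 fallen, with a median of 0.01. The highest and lowest of them, XTH17 and XTH15, are also counted above among the XTH enzymes. With the 20th percentile of each array added before log2, 2 of 22 rose. PGIP1, a polygalacturonase inhibitor under STOP1, had 2167 in control solution and 5209.9 in Al, the citrate exporter MATE 347 in control solution and 700.0 in Al, and XTH17, a wall enzyme tied to aluminium binding, 129.8 in control solution and 554 in Al. The malate channel ALMT1 had 1786 in control solution and 3214 in Al (0.85) and did not pass 2-fold. HAK5, a high-affinity potassium transporter, fell from 4526 to 1816. Enzymes of organic acid metabolism stayed within 2-fold at 25 of 26. The exception was PPC3, a phosphoenolpyruvate carboxylase, which fell from 3909.6 to 679.

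Nitrate uptake and reduction, the list with the most fallen genes of the 90, had 14 of 34 measured genes fallen (41.2%, 12 relative to the all-gene median), 0 risen and a median of -0.90. G6PD3 and RFNR2, which supply reductant to nitrite reduction in roots, had 1134 in control solution and 236 in Al and 5578 in control solution and 1752 in Al. NIR1, the nitrite reductase, had 4881 in control solution and 1413 in Al, and UPM1, which makes its sirohaem cofactor, 2333 in control solution and 612 in Al. The factors LBD37, LBD38 and LBD39, repressors of nitrogen-responsive genes, fell by 1.49, 1.39 and 1.62, and HRS1 (AT1G13300), a nitrate-induced repressor, from 1416 to 390.2. The nitrate reductase NIA2 was at 0.57 and the glutamine synthetase GLN1;4 at 0.80.

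Iron genes fell at 7 of 25 (28%) with 0 risen. The vacuolar iron transporter-like genes VTL5, VTL2 and VTL1 had 1675 in control solution and 242 in Al, 419 in control solution and 77.7 in Al and 877 in control solution and 280.0 in Al. NAS1, which makes the metal chelator nicotianamine, had 1668 in control solution and 269 in Al, and the iron-storage ferritin gene FER1 4368 in control solution and 1840.5 in Al. IRT1, the root iron importer, had a control signal of 399.9 and a bound of at least 5.33-fold lower, while OPT3, a phloem iron transporter, was at least 3.29-fold higher. The wrky47 control array had IRT1 at 79.3, close to its floor.

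Sulfate uptake and assimilation genes were below 0 at 20 of 26, where 64.1% of all measured genes were. Of the 26, 1 rose (3.85%) and 2 fell (7.69%), against 3.05% and 2.42% over all measured genes. SULTR1;2, the main root sulfate importer, fell from 5551 to 828 and APR2, the reductase that controls assimilation, from 1268 to 469, while SULTR3;1 rose from 159.7 to 462. Sulfur-starvation markers had a median of -0.70, with 8 of 9 below 0, 0 past 2-fold and 1 higher as a bound (DIN2). Potassium transport genes rose at 3 and fell at 3 of 29, and with the floor at the 60th percentile 0 of 16 rose and 1 fell. Among the risen was CNGC19, named above with the calcium genes, so its rise is not a separate result. CHX18, a cation exchanger, rose from 135 to 394. The xylem-loading potassium channel SKOR fell from 309 to 92.5. Tonoplast aquaporins were below 0 at all 6 measured members, and 3 of them fell (2 relative to the median), TIP4;1 from 470.0 to 95.6 and TIP2;3 from 4362 to 1745.

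Phosphate starvation genes had 1 of 18 risen, the factor WRKY75 with 107 in control solution and 448 in Al, and 1 fallen, the carboxylase kinase PPCK2 with 966 in control solution and 352 in Al. Ammonium and amino acid transporters fell at 3 of 17, UMAMIT29 from 328 to 134, with 0 risen and 1 lower and 1 higher as bounds. Relative to the all-gene median 1 fell, and with the floor at the 60th percentile 0 of 12 did. Zinc and heavy metal genes had 0 of 21 past 2-fold in either direction and 1 higher as a bound.

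Genes of carbon and nitrogen shortage rose in part. ASN1, the dark-induced asparagine synthetase, had 413 in control solution and 3765 in Al, and ASPGB1, an asparaginase, 325 in control solution and 1704 in Al. In the dark and starvation list 4 of 25 rose and 1 fell, and 3 were higher as bounds, DIN2, PPDK and SEN1, at least 3.22-, 3.56- and 2.66-fold. STP13, a hexose importer, rose from 425 to 1681.

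Genes of proliferation and protein synthesis were mostly below 0. Of 124 cytosolic ribosomal protein genes 121 were below 0, between -0.71 and 0.17, with a median of -0.25 and 0 past 2-fold. Ribosome biogenesis genes were below 0 at 23 of 25, and core histones at 13 of 15. Mitotic cell cycle genes were below 0 at 45 of 52, against 64.1% of all measured genes, with a median of -0.46. 4 of them fell, the mitotic cyclin genes CYC3B and CYCB1;4, the kinase CDKB2;1 and the cytokinesis syntaxin SYP111, by 1.12, 1.04, 1.04 and 1.02. Relative to the all-gene median 0 did, so the 2-fold calls depend on the scaling.

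Markers of root cell types were set beside these results. Endodermis markers fell at 3 of 7 measured (42.9%), with 1 lower as a bound and a median of -0.52. The 3 were CASP1, ESB1 and PER64, which the Casparian strip list also holds, while the endodermal factor SCR was at -0.35 and CYP86A1 at 0.07. The list of pericycle and stele markers had 4 of 7 fallen (3 relative to the median), namely SKOR, WOL, HAK5 and ACR4, and all 7 were below 0. Of the 4 only SKOR was among the markers planned for these cells, and how well the others mark them was not tested. SKOR, WOL and HAK5 are also named above, with potassium transport, cytokinin and aluminium tolerance, so their falls are not separate results. Phloem markers were below 0 at all 9, between -0.64 and -0.13, and xylem markers at 15 of 16 with a median of -0.18. Of all measured genes 64.1% were below 0. Of 7 measured root hair markers 1 fell (0 relative to the median) and 3 more were lower as bounds, led by RHS13 with a control signal of 455, at least 6.07-fold lower. Of 19 green tissue markers 5 were measured and 0 passed 2-fold. Clock genes had a median of -0.12 (8 measured) and reference genes -0.06 (17 measured), with 0 past 2-fold in either list. The part of a changed make-up of cells in the lists above was not tested.

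Adjacent genes were examined after the values were seen. Among genes that rose and had a measured neighbour in the RefSeq gene order, 35 of 277 had a neighbour that rose (12.6%), against 341 of 9062 other genes (3.76%). For fallen genes the shares were 14 of 210 (6.67%) and 251 of 9129 (2.75%). Neighbours that rose included genes of 1 family, such as PER4 and PER5, GSTU11 and GSTU12, XTH18 and XTH24, and AT1G72890 and AT1G72900. The 1 run of 3 risen genes was GSTU24, GSTU25 and GSTU26 on chromosome 1, with differences of 1.69, 2.13 and 1.48. On chromosome 5 the heavy-metal-associated genes AT5G52670 and AT5G52680 rose by 2.54 and 1.85, and AT5G52750 and AT5G52760 by 1.60 and 2.74. Copies of this kind can share signal on an array, and whether they did was not tested.

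In wrky47, where 3.42% of measured genes rose and 1.97% fell (5.38% in all), the arrays give each gene a second measurement of Al against control in another genotype and from other samples. Of the 379 genes that rose in wild type 372 were measured in wrky47 and 372 of these were above 0, with a median of 1.41 against 1.39 in wild type. Of the 301 that fell 282 were measured and 281 were below 0, with a median of -1.15 against -1.23. These genes were picked by their wild-type values, and the share of all measured genes above 0 in wrky47 was not counted. Genes such as NANA, an aspartyl protease (2.66 in wild type and 2.62 in wrky47), and AT4G15390 (-3.07 and -3.09) had nearly the same value in both. TAT3 (2.86 and 4.64) and AT2G29220, a lectin receptor-like gene (2.90 and 1.65), were among those with unlike sizes. These arrays differ in genotype and are no replicates of the wild-type pair.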

How the data were processed

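Total RNA of wild-type roots in control solution and in Al was hybridised to 1 array each. Per the file headers, the authors deposited normalized columns, whose values are on a log2 scale. The submitters' processing notes name MAS5; its settings, the scaling between arrays and a genome build were not stated. The deposited raw columns are linear intensity values equal to 2 to the power of the normalized ones (largest gap 1.55e-06 on the log2 scale), and the second deposited table was identical (0 values differed).

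From these values the 64 control probe sets, the 987 naming several genes and the 1209 naming none were left out. A gene with several probe sets took the one of highest mean. Symbols came from a RefSeq table (TAIR10.1), which 20277 genes matched. Log2 differences between 2 arrays were computed with Python 3.11.15, numpy 2.4.6 and pandas 2.3.3, and the computation was tested on simulated data. The number of arrays limits the precision.

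The comparison, the 83 gene lists and the members were chosen with earlier results of these data known. The name matches of 62 list entries were added or dropped after the files and list summaries had been seen, by gene name and title, and 7 family lists, matched by title words, were added after values were seen. Named genes are the 30 highest and 30 lowest with a symbol, 12 bounds in each direction, WRKY47, and up to 6 members of largest difference per list with its bounds of 2-fold, or any member of lists with at most 16 measured. PUB22, TCH2, MYB34, EDS16, PYK10, AT1G77330, LOG7, XTH31, NIA2, HIPP25 and GLN1;4 lie outside this rule and were chosen after their values were seen. A planned search of promoters was not run, as no promoter sequence was used here. Of 10 alternatives fixed beforehand and 1 added later, the effects are given in the closing section. Of the Casparian strip genes 1 is counted in its list and is otherwise not reported here.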

Additional observations from a re-analysis of the deposited data

Results flagged for a closer look

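Probe sets that name several genes or none were outside the comparison of genes. Of 685 such probe sets above the floor on both wild-type arrays 31 were 2-fold or more higher in Al and 13 lower. Over the genes measured 379 of 12434 rose (3.05%) and 301 fell (2.42%). The comparison did not use these probe sets, and an excess over the genes was not tested. The highest was shared by the glutamate decarboxylase genes GAD3 (AT2G02000) and GAD4 (AT2G02010), with 133 in control solution and 1176 in Al (3.15 on the log2 scale). A probe set shared by 2 purine transporter genes, AT1G57980 and AT1G57990, had 428 and 2424. The lowest was shared by the peroxidase genes AT1G05240 and AT1G05250, with 1085 and 244 (-2.15). Among the lowest was also a probe set of the ammonium transporter AMT1;3, which names AT3G24290 and AT3G24300, with 1833 and 571 (-1.68).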

How the results depend on the processing

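With 1 array per group no array could be left out. No paired analysis was possible because each group holds 1 sample and the result comes from no test. In wild type the counts of 379 risen and 301 fallen genes stayed within 1.5 times under quantile normalization (431 and 243), centring (441 and 246), the 75th percentile (425 and 253), subtraction of the median difference (488 and 211, added after seeing the data), no floor, the mean of probe sets, the added offset and the second table. They were 205 and 147 with a floor at the 60th percentile, 929 and 1167 at 1.5-fold and 126 and 69 at 3-fold. In wrky47 the counts of 426 and 245 were 241 and 122, 1092 and 880, and 147 and 74 under the same 3 settings. For wrky47 against wild type in control solution the 13 higher and 26 lower genes were 3 and 6, 116 and 236, and 1 and 3, and 6 and 14 with the offset; without a floor 41 were lower. Of 50 lists with a risen member 11 had none with the floor at the 60th percentile and 3 with the offset, and of 55 with a fallen member 15 had none with that floor, 7 with the offset, 5 after quantile normalization and 7 after either other scaling. Of 664 named genes 59 moved by more than the probe-set SD of 0.31 with the offset, and of 90 list medians 5 did with the stricter floor (1 list had no member left) and 9 with none. The cause was not tested. Signals near the floor limit what can be called: in the dimmest of 5 equal groups of genes 21 rose and 67 fell, in the brightest 94 and 49.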
